A study of Mus musculus with 6 samples.

Results

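The genes described here were the ligands and receptors of the tumor necrosis factor (TNF) superfamily, measured in primary neonatal mouse cardiomyocytes (NMCMs). Members were chosen by name, with earlier results of these data known, as protein-coding genes of the count table whose symbols begin with Tnfsf or Tnfrsf and a digit, together with Tnf, Lta, Ltb, Ltbr, Cd40, Cd40lg, Cd27, Cd70, Fas, Fasl, Ngfr, Eda and Edar. The rule found 44 of the 57010 genes in the table, 18 ligands and 26 receptors. Of these, 31 had at least 10 counts in 3 or more libraries and are reported with tests, and the other 13 are given by their counts.

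The series held 6 RNA-seq libraries of NMCMs kept under hypoxia (HO), V1 to V3 with vehicle (HO + Vehicle) and T4 to T6 with the plant sterol β-sitosterol (HO + β-SITO), which gives 3 libraries a group. The cells came from hearts of C57BL/6 mice 1 to 3 days old and were separated from fibroblasts by differential adhesion. Both groups were hypoxic, and the dose of β-SITO and the hours under hypoxia are not given for these libraries in the sources used here. Whether the 3 libraries of a group came from separate cultures is also not given, so p-values measure only the spread between these libraries, which may be technical. All names of the HO + β-SITO libraries carry a suffix that the HO + Vehicle names lack, so any difference in preparation that this suffix may mark cannot be told apart from β-SITO.

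TNF superfamily ligands are mostly trimeric proteins made at the cell membrane, and many are cut loose by proteases. They bind receptors that share cysteine-rich outer domains. Receptors with a death domain recruit adaptors such as TRADD and FADD and can start apoptosis or necroptosis, receptors without one recruit TRAF proteins and activate NF-κB, and decoy or secreted receptors bind ligand without passing on a signal. In the heart, TNF is known as a cytokine of the injured and infarcted myocardium.

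Promoters of members are shown first, since many of the genes moved together. Windows of 250 bases before the start of transcription were read from RefSeq on GRCm38.p6, which held 34 of the 44 members. The windows of the TNF receptor pair Tnfrsf1a and Tnfrsf1b, of the death receptor Fas, and of the costimulatory receptors Tnfrsf9 (at its downstream start) and Tnfrsf14 are printed, because these genes changed to different extents and each window held at least 1 of 3 motifs. Capitals mark the STAT motif GAS (TTCNNNGAA, its own reverse complement), the core of the interferon motif ISRE (GAAA, any 2 bases, GAAA) and the κB consensus, searched on both strands.
Tnfrsf1a, chr6:125349473-125349722, plus strand: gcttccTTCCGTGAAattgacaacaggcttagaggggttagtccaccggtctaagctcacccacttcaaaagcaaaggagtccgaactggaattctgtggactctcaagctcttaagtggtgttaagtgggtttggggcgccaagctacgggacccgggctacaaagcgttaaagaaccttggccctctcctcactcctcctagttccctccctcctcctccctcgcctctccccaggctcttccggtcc
Tnfrsf1b, chr4:145246871-145247120, minus strand: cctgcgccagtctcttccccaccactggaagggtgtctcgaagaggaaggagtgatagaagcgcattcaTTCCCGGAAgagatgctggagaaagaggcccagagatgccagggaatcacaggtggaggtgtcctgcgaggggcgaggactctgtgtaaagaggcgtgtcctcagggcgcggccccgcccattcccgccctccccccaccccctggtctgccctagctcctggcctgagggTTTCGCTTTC
Fas, chr19:34290409-34290658, plus strand: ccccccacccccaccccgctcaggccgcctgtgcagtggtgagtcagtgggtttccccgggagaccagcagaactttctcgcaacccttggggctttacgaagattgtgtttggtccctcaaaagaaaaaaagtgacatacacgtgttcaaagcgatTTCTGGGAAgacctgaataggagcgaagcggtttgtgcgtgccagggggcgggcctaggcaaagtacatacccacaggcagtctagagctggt
Tnfrsf9, chr4:150927749-150927998, plus strand: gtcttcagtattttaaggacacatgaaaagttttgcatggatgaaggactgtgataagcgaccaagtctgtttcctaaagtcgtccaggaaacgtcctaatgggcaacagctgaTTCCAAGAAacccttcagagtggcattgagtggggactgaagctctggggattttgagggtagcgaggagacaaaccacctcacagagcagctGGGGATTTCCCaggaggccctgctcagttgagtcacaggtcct
Tnfrsf14, chr4:154928078-154928327, minus strand: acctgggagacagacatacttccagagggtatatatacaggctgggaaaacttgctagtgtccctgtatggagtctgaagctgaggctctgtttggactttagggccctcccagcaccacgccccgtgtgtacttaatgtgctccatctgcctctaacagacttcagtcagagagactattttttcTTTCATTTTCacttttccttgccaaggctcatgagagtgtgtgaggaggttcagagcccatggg

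In Tnfrsf9, the capitals GGGGATTTCCC hold κB matches that overlap one another on both strands. Of the 23 reported members with a window, the κB consensus was found in 2 (Tnfrsf8 and Tnfrsf9), GAS in 4 (Fas, Tnfrsf1a, Tnfrsf1b and Tnfrsf9) and the ISRE core in 3 (Tnfrsf14, Tnfrsf1b and Tnfsf13b). Over all 27025 genes with such windows the shares were 8.23%, 8.13% and 3.46%, respectively. No motif of the 3 was found in the window of Tnf, which says only that these letters are not within those bases. These matches describe the letters and not the binding of a factor.

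Library totals lay between 16694734 and 17082129 counts for vehicle and between 16962152 and 18460522 for β-SITO. Levels are given as CPM, counts relative to library size scaled with TMM factors, and 0 counts in a library allow a level of up to 0.154 to 0.189 CPM, counting error only. Differences were tested for 14799 genes with edgeR's quasi-likelihood test and Benjamini-Hochberg adjustment. A gene was called when its adjusted p was below 0.05 and it differed by over 2-fold. By markers, the cultures held cardiomyocyte transcripts in every library (10 markers summed, 5948 to 6961 CPM in HO + Vehicle and 5317 to 9111 in HO + β-SITO) and fibroblast transcripts too (8 markers, 29833 to 31113 and 44413 to 45501 CPM). T4 stood apart from its group, with a cardiomyocyte sum of 5317 CPM against 9032 in T5 and 9111 in T6. Its counts differed from theirs with a chi-square per degree of freedom of 8.69 and 9.20, against 1.96 between T5 and T6. Pairs of vehicle libraries lay between 4.72 and 7.54, so T5 and T6 were closer to each other than any vehicle pair. Macrophage markers (10 genes, 1 called lower and 6 higher) summed to 1157 to 1271 and 2476 to 3030 CPM, and endothelial markers (8 of 8 called higher) to 204 to 234 and 837 to 867 CPM. The 8 T-cell markers summed to 5.87 to 6.64 and 5.06 to 5.34 CPM. Of these, Cd3e, Cd3d and Cd3g had 0 counts in all libraries, Lck was called lower (4.90 to 1.39 CPM) and Cd4 higher (0.397 to 1.95 CPM). The B-cell gene Pax5 was called lower, from 12.4 CPM to 0 counts. In bulk RNA, fewer cells of a type and less RNA per cell cannot be told apart, and the part of these cell types in the results below was not tested.

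With β-SITO, 19 of the 31 reported members were called lower and 2 were called higher. Among all tested genes, 10.1% were called lower and 12.8% were called higher. The median log2 fold change of the reported members was -1.35, against -0.0073 over all tested genes. For 24 members every β-SITO library lay below every vehicle library, and for 5 members every one lay above, as was so for 35.8% and 34.8% of all tested genes. As a caution, 4 members (Tnfsf4, Tnfsf8, Tnfsf11 and Tnfsf15) passed the count rule through the HO + Vehicle libraries alone, and so had to differ. Without them, 15 of 27 were called lower and 2 higher, and the median was -1.28. For 20 of these 27 every β-SITO library lay below every vehicle library, and for 5 every one lay above. Without T4, whose cardiomyocyte sum stood apart, 18 members were called lower and 2 higher. Of the 25 members with at least 10 counts in all 6 libraries, 14 were called lower, 2 higher and 9 neither. An exact permutation test of 3 libraries against 3 cannot go below p = 0.1, so the adjusted p given for a gene is that of edgeR.

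**Figure D1:**
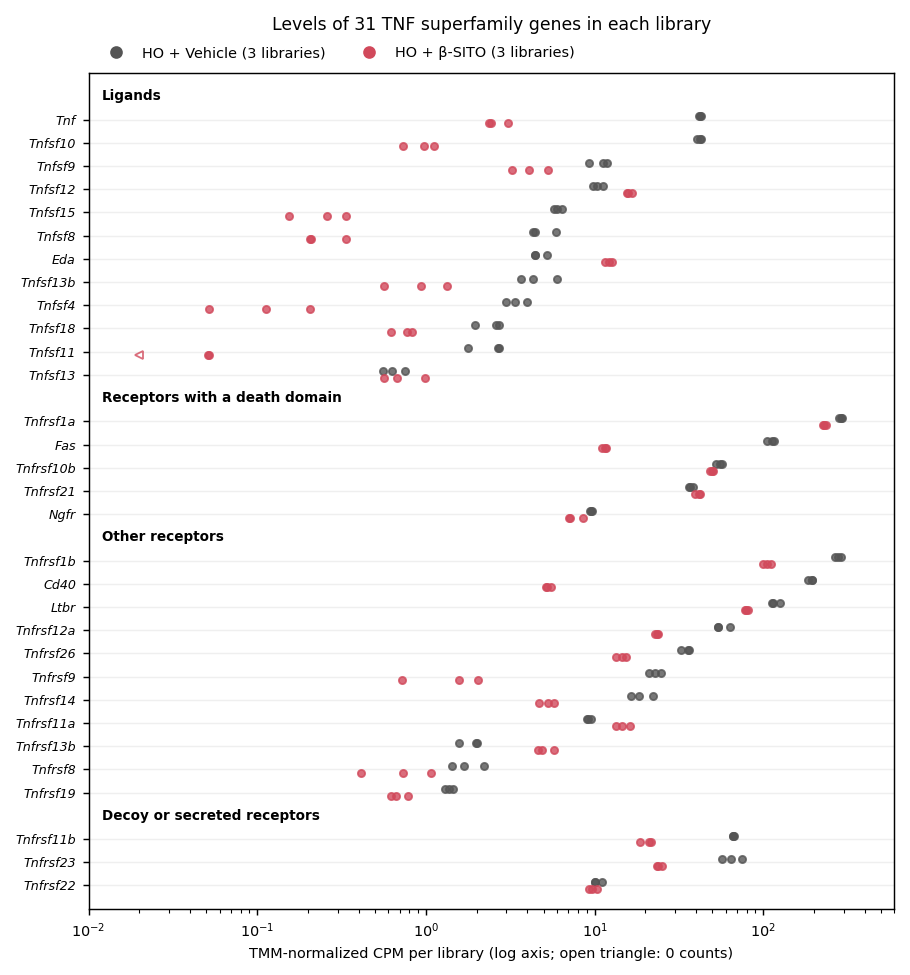
TMM-normalized CPM of the 31 reported members in each library on a log axis, by role, with HO + Vehicle libraries in gray and HO + β-SITO libraries in red (1 point per library, an open triangle for 0 counts). The groups overlap for 2 members, Tnfsf13 and Tnfrsf22. The lowest β-SITO points are those of the ligands Tnfsf4, Tnfsf8, Tnfsf11 and Tnfsf15. These passed the count rule through the HO + Vehicle libraries alone, so their low place was fixed by the rule.

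Of 12 reported ligands, 9 were called lower and 1 higher (75% and 8.33%, against 10.1% and 12.8% of all tested genes). These 12 include the 4 ligands that passed the count rule through vehicle libraries alone. Of the other 8, 5 were called lower and 1 higher (62.5% and 12.5%). The median log2 fold change was -1.52 for these 8 and -1.27 for the 19 reported receptors. Summed over all 18 ligands, the level was 135, 139 and 133 CPM in V1 to V3 and 38.1, 40.1 and 39.8 CPM in T4 to T6. Tnf, the founding cytokine of the family (chromosome 17, 35418357 to 35420983, GRCm39), had 42.1, 43.0 and 41.8 CPM in the vehicle libraries and 3.08, 2.36 and 2.45 CPM in the β-SITO libraries. The groups lay far apart, and the log2 fold change was -4.00 ± 0.11 (SE, adjusted p = 3.30e-14).

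Tnfsf10 encodes TRAIL, which can start apoptosis through the receptor DR5, and lies on chromosome 3 from 27371177 to 27396576 (GRCm39). It was at 40.5, 43.1 and 42.5 CPM with vehicle and 0.976, 1.12 and 0.729 CPM with β-SITO. The log2 fold change of -5.47 ± 0.13 (SE, adjusted p = 6.70e-15) was larger in size than that of Tnf. Both ligands had nearly the same CPM with vehicle, but per kilobase of exon Tnf stood at 25.8 and Tnfsf10 at 7.98 CPM per kb. The HO + β-SITO libraries still held 19, 20 and 14 counts of Tnfsf10.

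Several ligands that costimulate T cells were measured at low levels. Tnfsf4 (OX40 ligand) had 47, 54 and 64 counts with vehicle and 4, 2 and 1 with β-SITO, Tnfsf8 (CD30 ligand) had 94, 69 and 72 against 4, 6 and 4, and Tnfsf15 (TL1A) had 95, 92 and 103 against 3, 6 and 5. These 3 genes, like Tnfsf11 below, passed the count rule through the HO + Vehicle libraries alone. That the groups did not overlap in counts was therefore fixed by the rule. Their log2 fold changes were -4.72 ± 0.37, -4.27 ± 0.29 and -4.57 ± 0.26 (SE). The edgeR adjusted p was 1.79e-08 or lower, but for genes chosen in this way it is not separate support for a difference. Tnfsf11 encodes RANKL, the cytokine that drives osteoclast formation. It had 28, 43 and 44 counts with vehicle and 1, 0 and 1 with β-SITO. With so few counts the size of this decrease was not precise, and the ratio of pooled counts per library size was 67.8 (exact 95% interval 18.3 to 566, counting error only).

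The other called ligands fell less. Tnfsf13b, which encodes the B-cell survival factor BAFF, had 4.30, 5.96 and 3.66 CPM with vehicle and 1.34, 0.562 and 0.937 CPM with β-SITO (log2 fold change -2.27 ± 0.28, SE). Tnfsf18 (GITR ligand) had 2.72, 1.94 and 2.60 CPM against 0.771, 0.618 and 0.833 CPM, a log2 fold change of -1.69 ± 0.27 (SE). For both, the groups stayed apart but replicates spread more than for Tnf. Tnfsf9 (CD137 ligand) had 11.9, 11.2 and 9.30 CPM against 3.24, 4.10 and 5.31 CPM, with a log2 fold change of -1.35 ± 0.17 (SE). All 3 passed with an adjusted p of at most 4.20e-05. A lncRNA, Gm11110, lies on the other strand over part of Tnfsf9, and as the strand setting of the counting is not given, reads of the pair cannot be told apart.

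Eda was the called ligand that rose. It encodes ectodysplasin A, known for the development of hair, teeth and sweat glands (chromosome X, 99019212 to 99444368, GRCm39), and had 5.24, 4.45 and 4.46 CPM with vehicle and 11.6, 12.8 and 12.2 CPM with β-SITO. All β-SITO libraries lay above all vehicle libraries, with a log2 fold change of 1.36 ± 0.12 (SE, adjusted p = 8.56e-08). Its receptor Edar stayed under the count rule, with 8, 4 and 5 counts against 19, 6 and 9. Eda2r, a second ectodysplasin receptor that the name rule left out, was called lower, from 53.4 ± 2.34 to 15.4 ± 1.02 CPM (SD, n = 3; log2 fold change -1.79, edgeR adjusted p = 1.35e-11).

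Tnfsf12 (TWEAK) and Tnfsf13 (APRIL) were not called. Tnfsf12 had 9.85, 11.2 and 10.3 CPM with vehicle and 15.8, 16.6 and 15.6 CPM with β-SITO, and its log2 fold change of 0.61 passed the edgeR test (adjusted p = 3.69e-05) and not the 2-fold threshold. Tnfsf13 had 9 to 12 counts with vehicle and 11 to 19 with β-SITO, with groups that overlapped. These genes share a locus with the readthrough gene Tnfsfm13, which held 9 to 15 counts, and with the antisense Tnfsf13os, so the split of reads among them is uncertain.

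**Figure D2:**
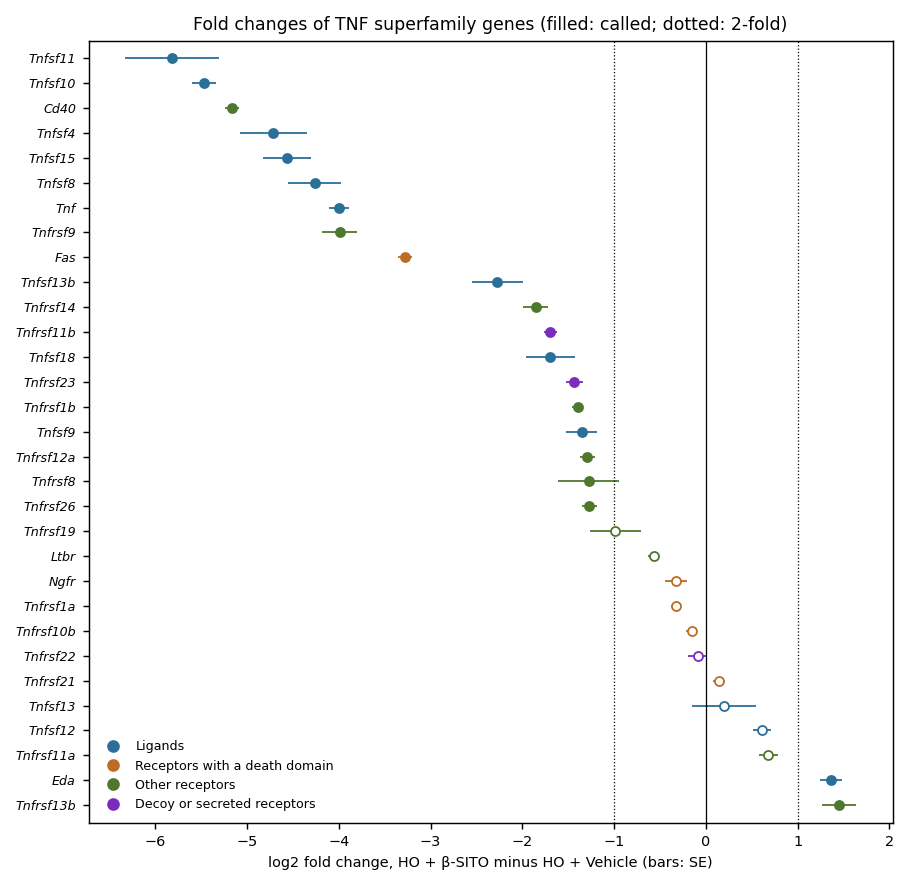
log2 fold changes of the 31 reported members (HO + β-SITO minus HO + Vehicle, bars: SE), colored by role, filled where called, with dotted lines at 2-fold. Ligands and Cd40 fill the far left, from Tnfsf11 at -5.82 to Tnf at -4.00. Of these ligands, Tnfsf4, Tnfsf8, Tnfsf11 and Tnfsf15 passed the count rule through the HO + Vehicle libraries alone, and so had to differ. Receptors with a death domain other than Fas lie near 0, and Eda and Tnfrsf13b lie past 2-fold on the right.

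Among receptors with a death domain, only Fas of the 5 reported was called (20%). Of all tested genes, 10.1% were called lower and 22.8% in either direction, so this count is close to that of all genes. Fas, the receptor through which FAS ligand starts apoptosis (chromosome 19, 34268066 to 34305172, GRCm39; window printed above), had 105, 114 and 117 CPM with vehicle and 11.8, 11.5 and 11.1 CPM with β-SITO. Its libraries were tight within each group and far apart between them, with a log2 fold change of -3.28 ± 0.07 (SE, adjusted p = 4.45e-15). FAS ligand itself, Fasl, had 0 counts in every library.

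Tnfrsf1a, which encodes TNFR1, had 292, 288 and 283 CPM with vehicle and 228, 226 and 234 CPM with β-SITO. The groups did not overlap, but the log2 fold change of -0.33 ± 0.05 (SE) was far from 2-fold. Tnfrsf10b, the TRAIL receptor DR5, had 55.2 ± 2.36 against 49.6 ± 0.748 CPM, Tnfrsf21 (DR6) had 37.3 ± 1.21 against 41.2 ± 1.30 CPM, and Ngfr, the p75 neurotrophin receptor, had 9.54 ± 0.169 against 7.61 ± 0.813 CPM (SD, n = 3). Their log2 fold changes were -0.16, 0.14 and -0.33, and that of Tnfrsf21 did not pass (edgeR adjusted p = 0.0735).

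Receptors without a death domain were called lower in 7 of 11 cases and higher in 1 (63.6% and 9.09%, against 10.1% and 12.8% of all tested genes). The largest decrease was that of Cd40, which encodes the receptor that lets antigen-presenting cells respond to T-cell help (chromosome 2, 164897547 to 164914868, GRCm39). Cd40 had 2910, 3107 and 3157 counts with vehicle and 101, 93 and 106 with β-SITO, or 184, 195 and 196 CPM against 5.19, 5.23 and 5.52 CPM. With this depth the log2 fold change was precise, at -5.17 ± 0.08 (SE, adjusted p = 6.67e-17). Cd40lg, its ligand, had 0 counts in all 6 libraries.

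Tnfrsf9 encodes CD137, a receptor that costimulates T cells. It had 24.95, 20.9 and 22.9 CPM with vehicle and 0.719, 1.57 and 2.03 CPM with β-SITO, and T4 held the lowest value. The log2 fold change was -3.99 ± 0.19 (SE, adjusted p = 5.07e-11). Camta1 lies on the opposite strand over Tnfrsf9, and its counts were 289 to 305 with vehicle and 363 to 529 with β-SITO, so any shared reads cannot be told apart.

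Tnfrsf1b, which encodes TNFR2, had 289, 266 and 278 CPM with vehicle and 111, 105 and 99.9 CPM with β-SITO (log2 fold change -1.40 ± 0.06, SE, adjusted p = 1.76e-11). Both TNF receptors thus started from nearly the same CPM and ended apart. Per kilobase of exon, the level of Tnfrsf1a over that of Tnfrsf1b was 1.49 to 1.59 in the vehicle libraries and 3.02 to 3.45 in the β-SITO libraries, so that the ratios did not overlap.

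Decreases of 2- to 4-fold were found for 4 further receptors of this class. Tnfrsf14 (HVEM) had 22.3, 16.5 and 18.4 CPM with vehicle and 5.29, 4.67 and 5.78 CPM with β-SITO. Tnfrsf12a, the TWEAK receptor Fn14, had 53.8, 63.7 and 54.1 against 22.8, 23.8 and 23.6 CPM. Tnfrsf26 had 36.3, 32.7 and 35.9 against 15.4, 13.5 and 14.6 CPM. In each of these genes the highest β-SITO library was below the lowest vehicle library, with log2 fold changes of -1.86, -1.29 and -1.27 and edgeR adjusted p of 5.61e-09 or lower. Tnfrsf8 (CD30) was scarcer and less certain, with 35, 27 and 23 counts against 8, 19 and 14. Its log2 fold change was -1.28 ± 0.33 (SE, adjusted p = 0.00313), and without T4 it was -0.98 and no longer past 2-fold.

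Tnfrsf13b was the called receptor that rose. It encodes TACI, a receptor for BAFF and APRIL (chromosome 11, 61017581 to 61040198, GRCm39), and had 25, 32 and 32 counts with vehicle and 112, 82 and 94 with β-SITO, or 1.58, 2.01 and 1.98 against 5.76, 4.61 and 4.89 CPM. The log2 fold change of 1.45 ± 0.19 (SE, adjusted p = 5.72e-06) went the opposite way from that of its ligand Tnfsf13b. The other BAFF receptors stayed under the count rule, with 0 to 5 counts of Tnfrsf13c and 0 to 3 of Tnfrsf17 in each library.

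The remaining receptors of this class were not called. Tnfrsf11a, the RANKL receptor RANK, had 9.20 ± 0.260 CPM with vehicle and 14.7 ± 1.44 CPM with β-SITO (SD, n = 3), and its log2 fold change of 0.68 passed the edgeR test (adjusted p = 3.66e-05) without reaching 2-fold. Ltbr, the lymphotoxin β receptor, had 118 ± 6.78 against 79.4 ± 1.64 CPM (SD, n = 3; log2 fold change -0.57). Tnfrsf19 (TROY) stood just inside 2-fold at a log2 fold change of -0.99, with 21 to 23 counts against 12 to 14, and was called without V3 (-1.004) or without T5 (-1.05).

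Of the decoy or secreted receptors, 2 of 3 were called lower (66.7%, against 10.1% of all tested genes). Tnfrsf11b encodes osteoprotegerin, the secreted decoy of RANKL, and had 65.8, 65.8 and 67.5 CPM with vehicle and 21.7, 18.6 and 21.0 CPM with β-SITO (log2 fold change -1.70 ± 0.07, SE, adjusted p = 1.34e-11). Together with the values for Tnfsf11 and Tnfrsf11a above, the ligand and the decoy of this axis were lower and the receptor was not. The ligand Tnfsf11 passed the count rule through the HO + Vehicle libraries alone, so that it was lower was fixed by the rule. The level of Tnfrsf11b per kilobase was 15.1 to 15.6 times that of Tnfrsf11a in the vehicle libraries and 2.70 to 3.34 times in the β-SITO libraries.

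Tnfrsf23, a mouse decoy receptor for TRAIL, had 74.9, 57.4 and 64.6 CPM with vehicle and 25.3, 23.6 and 23.9 CPM with β-SITO (log2 fold change -1.43 ± 0.09, SE, adjusted p = 1.41e-09). Its neighbor and close relative Tnfrsf22 had 10.4 ± 0.575 against 9.76 ± 0.581 CPM (SD, n = 3) with overlapping libraries, and did not pass (edgeR adjusted p = 0.475). Reads that match both genes could be split between them by the counting, so the separate values of Tnfrsf22 and Tnfrsf23 are uncertain.

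Set beside its receptors, a ligand did not always move as they did. With β-SITO, Tnfsf10 was 44.4-fold lower while its receptor Tnfrsf10b differed by 1.11-fold. Tnf had a log2 fold change of -4.00, Tnfrsf1b of -1.40 and Tnfrsf1a of -0.33. Among the death receptors, the level of Tnfrsf10b per kilobase was 0.188 ± 0.0179 times that of Fas with vehicle and 1.63 ± 0.0280 times with β-SITO (SD, n = 3). Tnfsf12 was 1.53-fold higher and its receptor Tnfrsf12a 2.45-fold lower, and Tnfsf9 and Tnfrsf9 were 2.56-fold and 15.9-fold lower. For several other members the partner was under the count rule, among them Cd40lg for Cd40, Fasl for Fas, Tnfsf14 for Tnfrsf14, Lta and Ltb for Ltbr, Edar for Eda, Tnfrsf4 for Tnfsf4, Tnfrsf18 for Tnfsf18 and Tnfrsf25 for Tnfsf15. In these pairs 1 side could not be tested, and the transcripts were measured in a mixed culture that does not show which cell made them.

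Compared per kilobase of exon, the order of members changed between the groups. With vehicle, Tnfrsf1a stood highest at 111 ± 1.81 CPM per kb (SD, n = 3), followed by Tnfrsf1b (72.8 ± 2.99), Cd40 (56.2 ± 1.94), Fas (54.2 ± 2.94) and Ltbr (50.0 ± 2.88). Libraries of Cd40 and Fas overlapped in this order, as did those of Fas and Ltbr. With β-SITO, Tnfrsf1a was again highest at 88.6 ± 1.61 CPM per kb, followed by Ltbr (33.7 ± 0.696), Tnfrsf1b (27.6 ± 1.48), Tnfrsf12a (12.1 ± 0.278) and Tnfsf12 (10.6 ± 0.335), and none of these neighbors overlapped. Cd40 stood at rank 3 of 31 with vehicle and rank 20 with β-SITO, and Tnf at ranks 7 and 19. Among the ligands the highest per kilobase was Tnf with vehicle, at 25.8 ± 0.377, and Tnfsf12 with β-SITO.

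**Figure D3:**
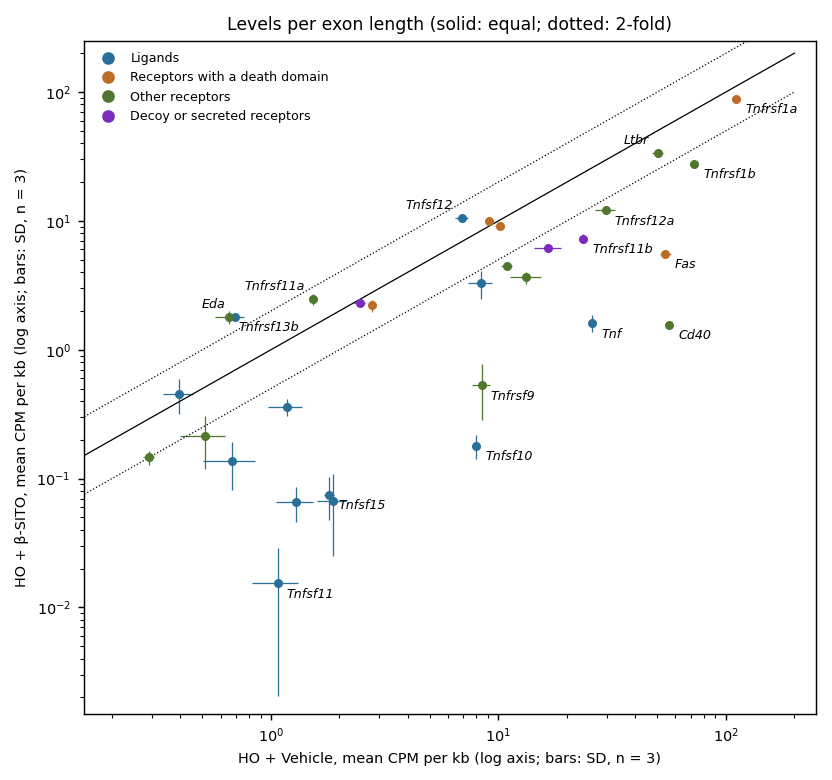
Mean CPM per kb of exon of the 31 reported members with vehicle (x) against β-SITO (y), both log axes, with bars for SD (n = 3), a solid line of equality and dotted lines at 2-fold. Tnfrsf1a and Ltbr lie within 2-fold near the top right, Cd40, Fas and Tnf lie far below the line, and Eda and Tnfrsf13b lie above it.

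Many members lie next to one another in the genome, which the name rule did not use. On GRCm39, 23 of the 44 members lay in 9 clusters with gaps of at most 500 kb. The ligand pair Tnfsf15 and Tnfsf8 on chromosome 4 (63642840 to 63779584) had log2 fold changes of -4.57 and -4.27, and the receptor pair Tnfrsf1b and Tnfrsf8 on the same chromosome (144940033 to 145041734) had -1.40 and -1.28. Tnfsf4 and Tnfsf18 on chromosome 1 (161222980 to 161616064) were both called lower but by different sizes, -4.72 and -1.69, and Fasl in the same cluster had no counts. Tnfsf15, Tnfsf8 and Tnfsf4 passed the count rule through the HO + Vehicle libraries alone. Their decreases were thus fixed by the rule and do not show that neighbors moved alike. On chromosome 6 (125209585 to 125339447) Ltbr and Tnfrsf1a were both within 2-fold. The cluster of Tnfrsf26, Tnfrsf22 and Tnfrsf23 on chromosome 7 (143161396 to 143239609) held genes called lower on both sides of Tnfrsf22, which was not called. On chromosome 17 (35413415 to 35424327), Tnf lies between Ltb and Lta, and these neighbors had at most 4 counts in any library.

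The 13 members under the count rule had at most 19 counts in any library. Fasl and Cd40lg were at 0 throughout. Cd70, the ligand of CD27, had 5, 7 and 8 counts with vehicle and 0 in each β-SITO library, and Lta had 2, 4 and 1 against 0. Tnfsf14 (LIGHT) had 0, 1 and 0 against 2, 6 and 3, and Tnfrsf25 (DR3) had 2, 6 and 0 against 8, 8 and 10. Differences at this depth were not tested. Ltb, Cd27, Tnfrsf4 and Tnfrsf17 had at most 8 counts in any library, and Tnfrsf18 had 14 counts in V1 and at most 9 in the others.

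Genes around the receptors were described with lists written by hand. Of 33 tested adaptors, kinases and ubiquitin enzymes, 13 were called lower (39.4%, against 10.1% of all genes), with a median log2 fold change of -0.57. The adaptors moved unequally. Traf1 fell from 38.8 ± 2.08 to 1.14 ± 0.138 CPM (SD, n = 3; log2 fold change -5.09), while Traf2 had -1.07 and Tradd -0.24. Fadd, Casp8 and Ripk1, which act close to the death receptors, had log2 fold changes of -0.81, -0.61 and -0.39 and were not called. Of the necroptosis genes of the same list, Mlkl and Ripk3 were called lower, whereas Ripk1, which also acts in necroptosis, was not, as given above. Mlkl, the executioner, had means of 258 against 16.1 CPM (n = 3, log2 fold change -4.001 ± 0.072, SE), and the kinase Ripk3 had -1.30. Cflar, an inhibitor of caspase activation at these receptors, was called lower at -1.68. Tnfaip3, the ubiquitin-editing enzyme A20 that restrains TNF signaling, fell by 4.36 on the log2 scale, and Cyld, another deubiquitinase of the pathway, by 1.13.

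Of 9 genes for shedding and processing of ligands, 3 were called lower and 1 higher (33.3% and 11.1%, against 10.1% and 12.8% of all genes). Adam17, the protease that releases soluble TNF, had 233 ± 9.95 CPM with vehicle and 102 ± 4.63 CPM with β-SITO (SD, n = 3; log2 fold change -1.20), and Rhbdf2, which helps ADAM17 mature, had a log2 fold change of -1.23. Sppl2a, which cleaves the membrane stub of TNF after shedding, had -2.02. Timp3, an inhibitor of ADAM17, was the gene called higher, from 126 ± 12.6 to 771 ± 19.6 CPM (SD, n = 3; log2 fold change 2.61, edgeR adjusted p = 7.73e-14). Of 8 genes that control TNF mRNA, 1 was called lower (12.5%, against 10.1% of all genes), Zc3h12a (regnase-1), at -3.10.

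Of 9 cell death effectors, 4 were called lower (44.4%, against 10.1% of all genes), among them Bid, which links death receptors to mitochondria, at -2.68, and Daxx, which binds the death domain of FAS, at -2.65. Cytochrome c (Cycs), which is released from mitochondria in apoptosis, was also called lower, at -1.21. Among 10 partners of NGFR, 5 were called higher (50%, against 12.8% of all genes), with the neurotrophin receptors Ntrk3 at 4.42 and Ntrk2 at 3.42, while Ngfr itself was not called. Ntrk3 had 0.333 ± 0.154 CPM with vehicle and 7.30 ± 0.850 CPM with β-SITO (SD, n = 3). Ntrk3, Ntrk2 and Ntf3, all called higher, had at most 0.496 CPM in any vehicle library. They passed the filter on low counts through the HO + β-SITO libraries alone, and so had to differ. The share of 50% includes them and is not separate support for a difference. Sort1, the sortilin that pairs with NGFR, had a log2 fold change of 1.47 and Lingo1 of 1.52.

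**Figure D4:**
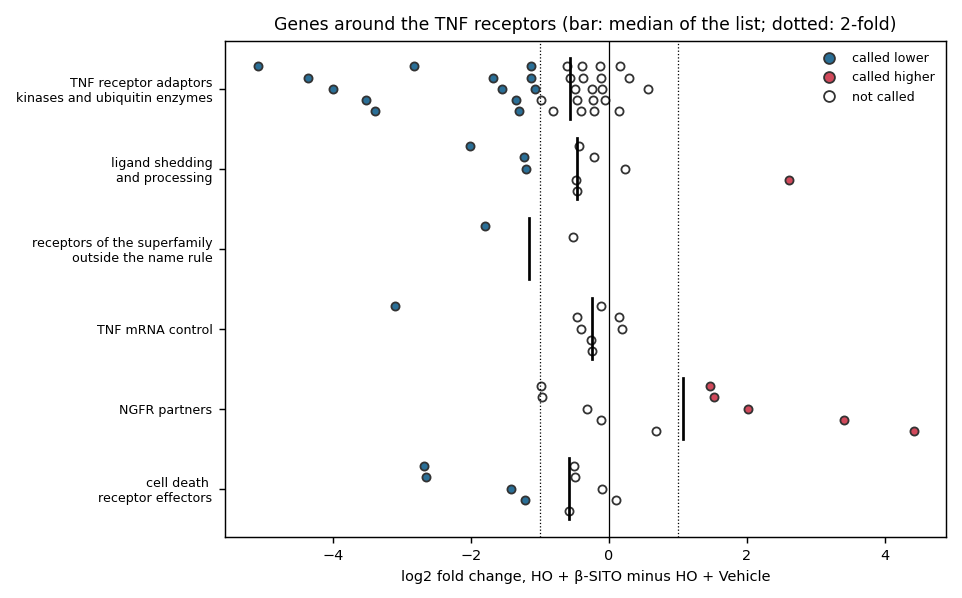
log2 fold changes (HO + β-SITO minus HO + Vehicle) of the tested genes on 6 lists around the TNF receptors, 1 point per gene, colored where called, with a bar at the median of each list and dotted lines at 2-fold. The adaptor list reaches from -5.09 to 0.57 with 13 genes called lower, and the NGFR partners hold 5 genes called higher. Among these, Ntrk3, Ntrk2 and Ntf3 passed the filter on low counts through the HO + β-SITO libraries alone, and so had to differ.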

How the data were processed

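The authors deposited raw read counts per gene for 6 libraries, with no normalization. The submitters' processing notes name FastQC, HISAT2, featureCounts and GRCm39. Versions, the annotation release and the strand and multi-mapping settings are not given in the sources used here. For the library kit, the paper and the sample records name different makers.

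Counts were analyzed with R 4.3.3 and edgeR 4.0.16: filterByExpr (14799 of 57010 genes), TMM factors and the quasi-likelihood test with the group as its only term and Benjamini-Hochberg adjustment over all tested genes. The SE was taken from the F statistic. The thresholds of a call, 0.05 and 2-fold, are those in the study's methods. The code was tested on simulated data. The common biological coefficient of variation was 6.52%, and every pair of replicates differed by more than counting noise (chi-square per degree of freedom of 1.96 or more). The table gives no gene length, so levels per kilobase use the union of exons in GENCODE vM21, matched by gene ID for all 44 members. That annotation is on GRCm38, as are the RefSeq promoter windows, whereas gene coordinates are those of the deposited table. Of 38 windows of members, 32 were found in sense in a transcript of the gene and 0 in antisense.

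The members, gene lists and markers were chosen with earlier results of these data known, so no p-value over the lists is given. Every member is accounted for. Called members and Tnf, Tnfrsf1a and Tnfrsf1b are given by library, and from each list at most the 2 lowest and 2 highest called genes were named, with Traf1, Traf2, Tradd, Fadd, Ripk1, Casp8 and Adam17. Mlkl, Ripk3, Cflar, Lck, Cd4 and Pax5 were singled out after their values were seen. Alternatives were DESeq2 1.42.0, limma-voom 3.58.1, glmTreat, no fold cutoff, other normalizations and filters, and each library left out.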

Additional observations from a re-analysis of the deposited data

How the results depend on the processing

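Each reported member was recomputed under 16 alternatives, and 482 of 496 values kept their direction and their side of the threshold. Counts of called members stayed at 18 to 20 lower and 2 higher except without the fold cutoff, where 24 were lower and 4 higher, and where over all genes 5007 were lower and 4885 higher. In place of TMM, upper quartile scaling and library size only moved the median of all genes by 0.14 and 0.15 (log2). They turned Tnfrsf22, which was not called, to 0.054 and 0.059, and changed the direction of no other member. Leaving out single libraries gave Tnfsf13 log2 fold changes between -0.055 and 0.37, turning without T6, and Tnfrsf8 between -1.60 and -0.98. Tnfrsf8 was also not called with glmTreat (adjusted p = 0.389, and 2.59e-04 to 0.389 over the alternatives). No paired analysis was possible because the groups share no replicate number. Counts of 20 or fewer in every β-SITO library limit the size given for the called Tnfsf4, Tnfsf8, Tnfsf10, Tnfsf11, Tnfsf15, Tnfsf18 and Tnfrsf8. The same limit holds for Tnfsf13 and Tnfrsf19, which were not called.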
